A study of Homo sapiens with 6 samples.

Results

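This report covers 72 genes whose annotation in the authors' table holds the Gene Ontology process of DNA-templated transcription, out of 1305 genes in that table. The rule took 92 annotated rows, left out 10 that were also annotated to cell division, inflammation, immunity or adhesion, and left out 10 more by symbol, such as those starting HOXA, E2F or CDKN. It used no measured value. The table itself, however, was chosen by the authors on the comparison described here: the smallest absolute log2 fold change in it was 1.00 and the largest adjusted p was 0.0428. A member that changed little could therefore not appear, and genes outside the table were not analysed here.

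The cells were NCI-H292, an established human lung cancer line. The control group of 3 libraries was exposed to DMSO, the drug's solvent, diluted 1 in 1000, and the treated group of 3 libraries to 50 nM mitoxantrone, in both cases for 48 hours. Mitoxantrone, used in chemotherapy, inserts into DNA and holds topoisomerase II in its cleavage complex, and the title of the series is about senescence, a lasting arrest of cell division. Whether each library is its own culture is not in the labels, so the p-values rest on a spread among samples that could be technical. Being bulk RNA from 1 line, the data cannot tell fewer cells with a transcript from less of it per cell.

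Transcription regulators act at several levels. Sequence-specific factors bind short DNA motifs at promoters and enhancers through zinc fingers, homeodomains, helix-loop-helix or leucine zipper domains, and cofactors link them to the polymerase. Chromatin proteins write, read or erase marks on histones and DNA, and several of them are made mainly in dividing cells because new chromatin must be assembled and marked after each round of replication. In airway epithelium, ETS, C/EBP and Krüppel-like factors are known for holding the differentiated state.

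The libraries held 14762586 to 17817842 assigned reads, totals that were solved from the deposited values. The 72 genes took 0.170% to 0.201% of these reads. Levels below are normalized reads, which are reads divided by the library's size factor from the authors' own scaling, unless FPKM (a level per transcript length and library depth) is named. The median member had 108.6 normalized reads against 64.2 for the whole table, and 16 members had fewer than 30. Among 33 cell type markers, 6 were in the table. The epithelial keratins KRT8 and KRT18 stood at 375.4 to 467.8 and 358.4 to 489.1 FPKM with DMSO, while CD14 (1.51 to 2.44), COL1A1 (1.83 to 2.61) and CDH5 (3.98 to 5.68), markers of other cell types, were low and fell with mitoxantrone. KRT8 and KRT18 rose, and the epithelial factor ELF3 fell. The part of these genes in the results below was not tested.

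Of the 72 members, 28 had a higher and 44 a lower level with mitoxantrone, while the authors listed 60.8% of the table as higher and 39.2% as lower. The edgeR quasi-likelihood test called 27 higher and 41 lower at an adjusted p of 0.05, which is 37.5% and 56.9% of the members. Over the whole table the same rule called 56.7% higher and 35.3% lower, and 92.0% in either direction against 94.4% of the members. These shares follow from how the table was selected and are no evidence that the members respond. The median log2 fold change was -1.12 for the members and 1.26 for the table. With size factors taken instead from the listed genes only, which shifted the table's median by -0.69 (TMM) or -0.99 (DESeq2), 9 members were called higher and 44 lower, or 3 higher and 44 lower. No member's log2 fold change turned sign under either. The 9 included ARNT2, PRDM1, HES2, NR5A2, STAT4, MACC1, MAP3K9 and TP53INP1, and the 3 were ARNT2, PRDM1 and HES2. Every other member named below that was called higher with the authors' scaling was called higher with neither the TMM nor the DESeq2 size factors.

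The members moved by modest amounts. Changes of 2 log2 units or more were seen in 11 members (15.3%), against 33.6% of the table, and 25 members lay below 1.2. The 7 members lower by that size included SALL3, NFE2, CITED1, PRDM16 and MXD3, of which NFE2 did not pass the test, and the 4 rises were ARNT2, PRDM1, NR5A2 and HES2. In the authors' deposited table the members nearest the fold threshold had log2 fold changes of 1.01 (ZFHX2) and -1.01 (PRAME). Genes just outside the threshold are not analysed here.

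**Figure D1:**
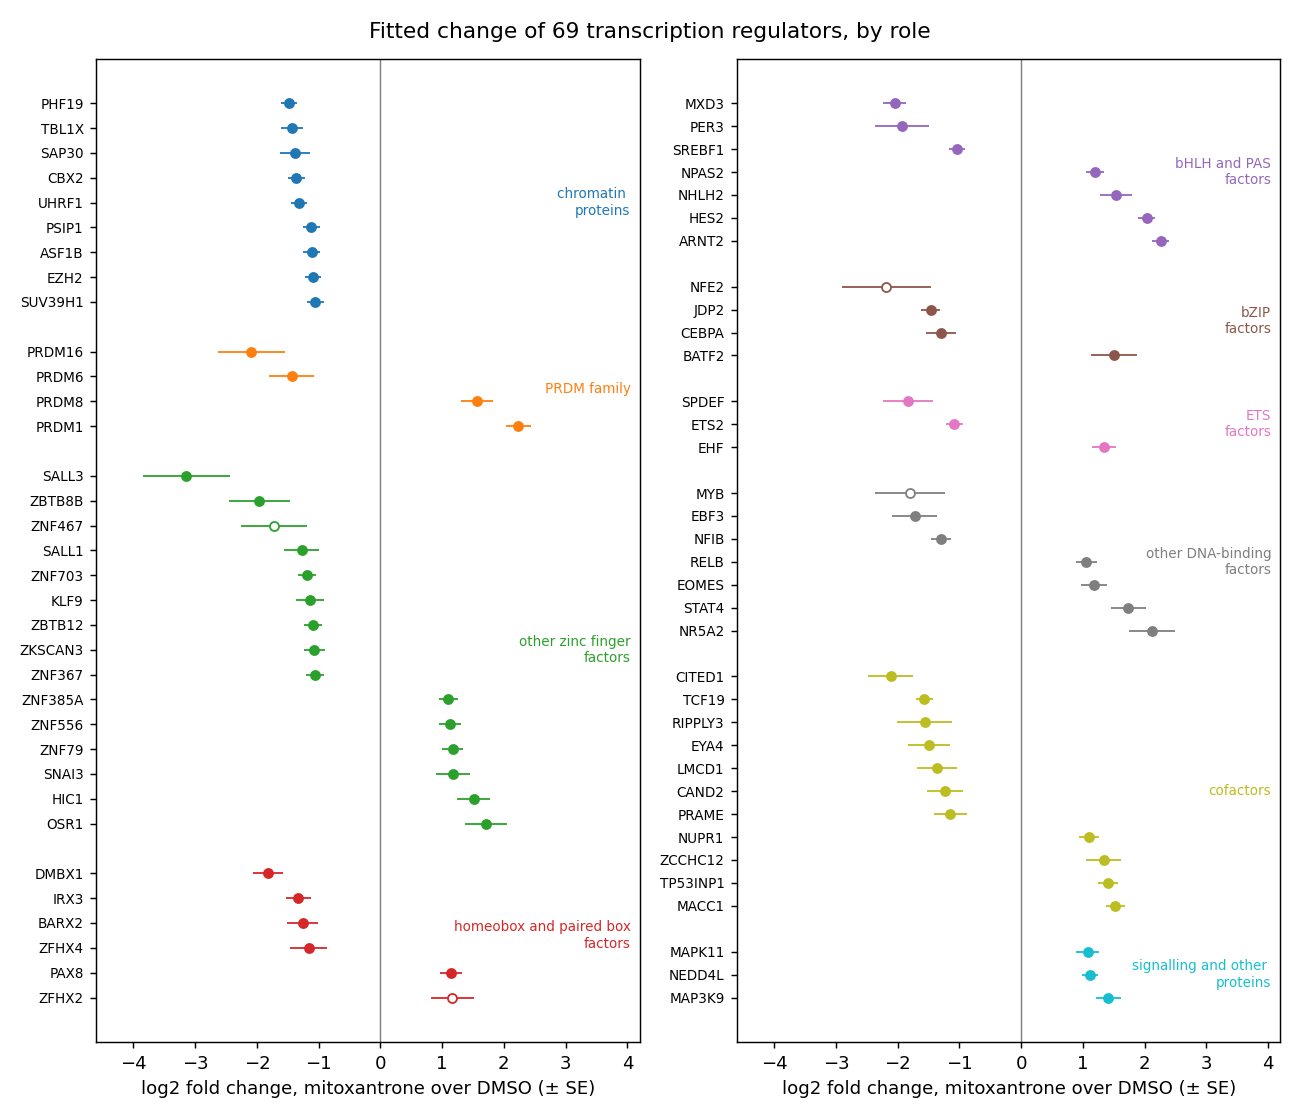
Fitted log2 fold change, mitoxantrone over DMSO, of 69 members with its standard error (bars), grouped and coloured by role. Open circles are the 4 members that did not pass an adjusted p of 0.05. The 9 chromatin proteins lie in a narrow band from -1.48 to -1.05, while every other role except signalling holds members on both sides of 0.

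The 9 members grouped here as chromatin proteins all fell, where 35.3% of the whole table was called lower. The grouping was made with earlier results of these data known. Of the 16 members annotated to chromatin binding, 12 were called lower and 3 higher. The 3 were PRDM8, EOMES and NUPR1, which are grouped under other roles. UHRF1, which reads newly replicated DNA and brings the maintenance DNA methyltransferase to it, was at 2201, 1967 and 1896 normalized reads in the DMSO libraries and 767.8, 847.1 and 807.2 with mitoxantrone. The groups were far apart, and UHRF1 fell 2.50-fold (log2 fold change -1.32, standard error 0.13, adjusted p = 3.5e-06). EZH2, the methyltransferase of Polycomb repressive complex PRC2, stood at 983, 986.1 and 896.2 with DMSO and 433.1, 461.6 and 446.5 with mitoxantrone. Its replicates hardly differed within a group, and the fall was 2.14-fold. PHF19, an accessory subunit of the same complex, fell from 1304 ± 83.4 (SD, n = 3) to 468.5 ± 14.4 (SD, n = 3). CBX2, which reads the mark that EZH2 writes, fell from 584.2 ± 23.2 (SD, n = 3) to 227.6 ± 25.2 (SD, n = 3).

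SUV39H1, the methyltransferase that marks constitutive heterochromatin on histone H3, had 589.5, 581.1 and 559.5 normalized reads with DMSO and 271.4, 310.5 and 251.2 with mitoxantrone. ASF1B, a chaperone that hands histones H3 and H4 to new DNA, fell 2.16-fold from 1322 ± 157 (SD, n = 3), and PSIP1, a reader of histone methylation on transcribed genes also called LEDGF, fell 2.17-fold from 1818 ± 70.1 (SD, n = 3). The corepressor subunits SAP30 (of the SIN3 complex) and TBL1X (of the NCoR complex) were less even. SAP30 was at 172.7, 306 and 181.6 with DMSO and at 107.4, 64.6 and 80.5 with mitoxantrone, so that DMSO replicate 2 alone was high, yet the groups did not overlap. Exons of SUV39H1 and PSIP1 overlap genes on the opposite strand in the GENCODE 29 annotation, and without strand those reads cannot be told apart. In that annotation 25 of the 71 members found shared at least 50 exon bases with another gene. Not every such member is marked below.

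**Figure D2:**
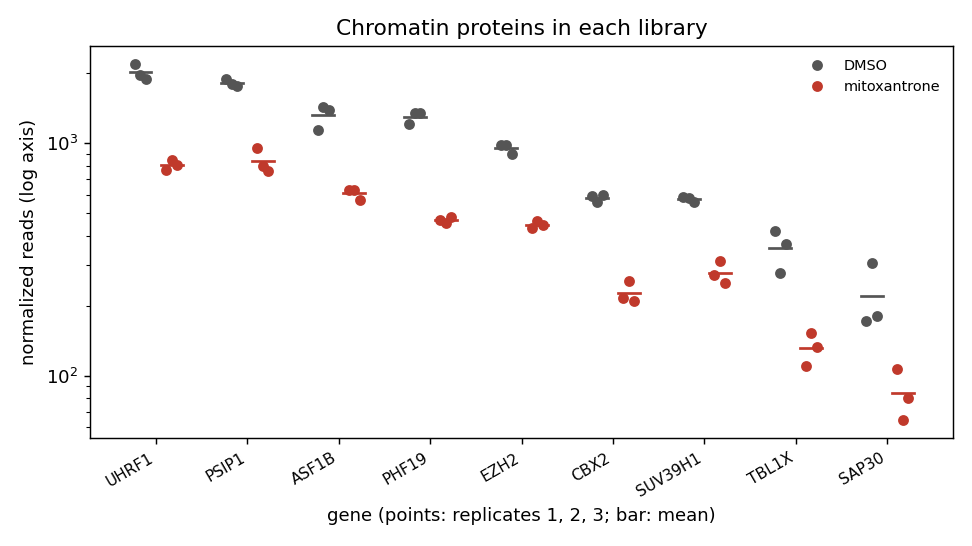
Normalized reads (log axis) of the 9 chromatin proteins in each of the 6 libraries, ordered by DMSO level; points are replicates 1 to 3 from left to right and bars are means. All 3 mitoxantrone libraries lie below all 3 DMSO libraries for each gene, with the widest DMSO spread for SAP30.

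A list of 175 chromatin writers, erasers, readers and remodelers had 8 genes in the table. The 6 of them that are members all fell, namely SUV39H1, EZH2, UHRF1, CBX2, PHF19 and ASF1B. The other 2, the deacetylases HDAC9 and SIRT4, rose. HDAC9 is left out of the members for a co-annotated process, and SIRT4 lacks the annotation. HDAC9 stood at 109.1, 99.9 and 90.8 normalized reads with DMSO and at 252.2, 287.6 and 281.2 with mitoxantrone. SIRT4 was near the detection limit, at 0 to 2.57 with DMSO. The median log2 fold change of the 8 was -1.10. The proliferation marker MKI67 also fell, from 9833, 3955 and 7853 to 2027, 3157 and 3423. Its DMSO libraries were uneven, with replicate 2 the lowest. The part of cell division in these falls was not tested.

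The promoters of UHRF1, EZH2, ZNF367 and ASF1B are shown as examples, UHRF1, EZH2 and ZNF367 as the lower members with an E2F match and ASF1B as the chromatin protein with a CHR match. They were picked after the matches were seen, and other lower members also hold CCAAT or CHR letters. These letters are known from promoters of genes that peak in dividing cells. ZNF367, a zinc finger factor, fell from 494.5 ± 68 (SD, n = 3) to 238.3 ± 8.05 (SD, n = 3). The sequences are from RefSeq, build GRCh38.p14, read on the strand of the gene from 220 bases before to 20 bases after the start, at chr19:4909281-4909520 (plus strand, UHRF1), chr7:148884272-148884511 (minus, EZH2), chr9:96418351-96418590 (minus, ZNF367) and chr19:14136570-14136809 (minus, ASF1B). Capitals mark TTTCCCGC or TTTGGCGC (E2F), CCAAT, and TTTGAA (CHR) on either strand, so that GCGGGAAA and ATTGG are reverse matches.
UHRF1: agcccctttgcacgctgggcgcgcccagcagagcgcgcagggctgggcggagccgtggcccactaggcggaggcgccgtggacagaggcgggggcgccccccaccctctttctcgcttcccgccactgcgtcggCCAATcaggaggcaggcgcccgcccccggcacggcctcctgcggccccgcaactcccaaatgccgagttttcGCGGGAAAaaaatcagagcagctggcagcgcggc
EZH2: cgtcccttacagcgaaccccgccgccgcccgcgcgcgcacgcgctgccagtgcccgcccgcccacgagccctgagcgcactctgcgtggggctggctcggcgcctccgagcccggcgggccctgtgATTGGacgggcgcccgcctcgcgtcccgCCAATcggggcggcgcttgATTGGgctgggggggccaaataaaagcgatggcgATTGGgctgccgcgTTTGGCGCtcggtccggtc
ZNF367: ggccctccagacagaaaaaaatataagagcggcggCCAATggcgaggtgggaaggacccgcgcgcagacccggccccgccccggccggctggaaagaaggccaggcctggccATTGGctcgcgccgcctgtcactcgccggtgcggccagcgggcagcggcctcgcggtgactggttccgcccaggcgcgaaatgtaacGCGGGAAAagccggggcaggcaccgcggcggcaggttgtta
ASF1B: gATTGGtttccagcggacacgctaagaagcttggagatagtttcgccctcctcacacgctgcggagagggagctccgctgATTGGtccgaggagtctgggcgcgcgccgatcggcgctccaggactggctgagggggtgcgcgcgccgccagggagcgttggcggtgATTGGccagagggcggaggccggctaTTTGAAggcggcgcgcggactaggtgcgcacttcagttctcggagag

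An E2F match lay 6 bases before the start in UHRF1, 13 bases before it in ZNF367, and from the base numbered 2 after the start in EZH2. EZH2 carried 4 CCAAT boxes before its start, the farthest with 89 bases between it and the start. ASF1B held 3 CCAAT boxes and a CHR match 21 bases before the start, with no E2F match in the window. RefSeq windows of 300 bases (250 before to 50 after the start) were matched for 51 members, 19 higher and 32 lower; where a gene had several, the row listed earliest was used. An E2F match of either spelling was in 3 of the 32 lower and 0 of the 19 higher members, against 2.31% of 27305 promoters. CCAAT was in 43.8% of lower and 42.1% of higher members, against 35.7%. The CHR letters TTTGAA were in 6.25% and 10.5%, against 15.4%. The AP-1 letters TGANTCA were in 3 of the 19 higher members (NR5A2, STAT4 and NHLH2) and 1 of the 32 lower (MXD3), against 7.76%. A single p53 decamer, of which a full p53 site holds a pair, was in 2 of the 19 (NR5A2 and MACC1) and 0 of the 32, against 6.54%. The NF-kB motif was in 12.5% of lower and 5.26% of higher members, against 10.8%. The CRE letters TGACGTCA were in 1 and the E-box letters CACGTG in 2 of the 32 lower members and in 0 of the 19 higher, against 1.98% and 7.43%. Matches are letters and not shown to be bound, and these counts are too small to compare.

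The base composition of the windows was also compared. The median GC content of the windows was 69% for the lower members and 57.3% for the higher ones. In the whole table it was 64.8% for lower and 60.3% for higher genes, and 58.3% over all promoters. The SP1 letters GGGCGG, which are rich in G and C, were in 71.9% of lower and 47.4% of higher members, against 44.6% of all promoters. The difference was not tested.

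Of the 7 helix-loop-helix and PAS factors 4 rose and 3 fell, where 37.5% of all members were called higher and 56.9% lower. ARNT2, a partner that PAS factors such as the hypoxia and dioxin sensors bind to reach DNA, was at 265.5, 249.4 and 298.2 normalized reads with DMSO and 1242, 1341 and 1313 with mitoxantrone. No DMSO library came near the treated ones, and ARNT2 rose 4.79-fold (adjusted p = 3.4e-08), the smallest p among the members. HES2, of the hairy and enhancer of split family of repressors, was at 291.3, 258.6 and 311 with DMSO and at 1125, 1230 and 1174 with mitoxantrone. It rose 4.09-fold, and both genes kept their call when size factors came from the listed genes. NPAS2, a partner of the clock factor BMAL1, rose 2.28-fold and NHLH2, a neuronal factor, 2.90-fold from 18.9 ± 2.37 (SD, n = 3).

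MXD3, which competes with MYC for the partner MAX, went the other way. It was at 305.9, 472.9 and 398.4 with DMSO and at 107.4, 85.4 and 91.2 with mitoxantrone, a 4.14-fold fall. Its exons share 926 bases with RAB24 on the same strand and 1158 with PRELID1 on the opposite strand in GENCODE 29, so the division of its reads is uncertain. SREBF1, the factor that switches on fatty acid synthesis genes, was at 2425 ± 276 with DMSO and fell to 1181 ± 57.3 (SD, n = 3 each). PER3, a clock repressor, was at 20.8 ± 5.79 and fell to 5.39 ± 0.971 (SD, n = 3 each). The call for PER3 was lost without DMSO replicate 3 (adjusted p = 0.054). A list of 79 helix-loop-helix and PAS genes, which leaves out NHLH2 and PER3, had 6 in the table. Of these 5 are members, 3 higher and 2 lower, and the other, MSC, fell. The clock list of 22 had 4 in the table, with NPAS2 and the non-member NR1D1 higher, and PER3 and the non-member DBP lower.

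**Figure D3:**
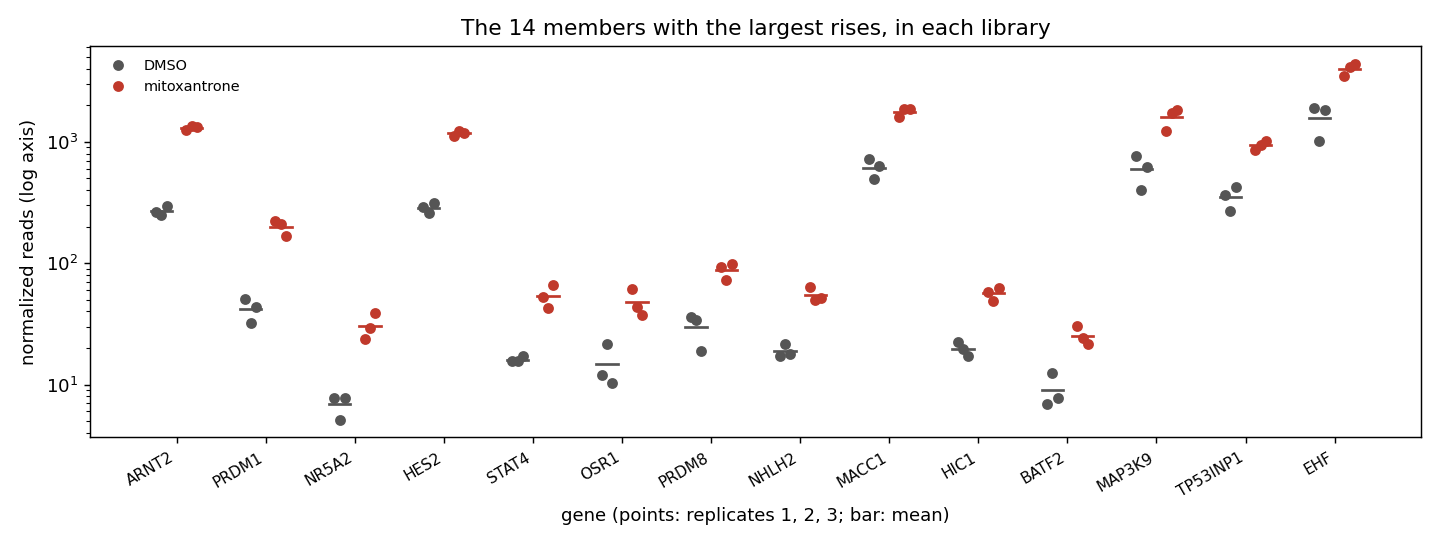
Normalized reads (log axis) of the 14 members with the largest fitted rises in each library, with replicates 1 to 3 from left to right and bars at the means. The groups do not overlap for any of the 14; DMSO replicate 2 is the lowest DMSO library for 9 of the 14, with wide gaps for EHF and MAP3K9 and almost none for STAT4.

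The PRDM family, zinc finger proteins that share a domain with histone methyltransferases, split evenly. PRDM1 (BLIMP1), a repressor that drives terminal differentiation in B cells and epithelia, was at 50.7, 31.9 and 43.7 with DMSO and 222.8, 211.5 and 166.4 with mitoxantrone, a 4.71-fold rise. PRDM8 rose 2.96-fold. PRDM6 and PRDM16 fell, but from 24.5 ± 4.31 (SD, n = 3) and 14.1 ± 4.94 (SD, n = 3) normalized reads. Both of these calls were lost without DMSO replicate 3 or without any 1 mitoxantrone library (adjusted p from 0.054 to 0.16). The family's median log2 fold change of 0.07 comes from this split.

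Among the other 16 zinc finger factors 6 rose, 9 fell and 1 did not pass. The shares over all members were 37.5% called higher and 56.9% lower. SALL3, of the Spalt family, was at 18, 5.15 and 17.1 with DMSO and at 1.13, 1.04 and 2.15 with mitoxantrone. Its raw counts in the treated libraries were 1, 1 and 2 reads, so the size of its fall is poorly known, and the call was lost without DMSO replicate 1 (adjusted p = 0.054). The related SALL1 fell 2.41-fold from 46.1 ± 1.44 (SD, n = 3). ZBTB8B fell from 17.1 ± 5.36 (SD, n = 3), a call that was lost without DMSO replicate 1 or mitoxantrone replicate 1 or 2 (adjusted p 0.076 to 0.13), and it shares 1480 exon bases with a neighbouring gene on the same strand. ZNF703, a corepressor gene amplified in some breast cancers, KLF9, a Krüppel-like factor induced by glucocorticoids, ZBTB12, ZKSCAN3 and ZNF367 fell by 2.07-fold to 2.27-fold. For ZNF467 the log2 fold change was -1.73, with an adjusted p of 0.085.

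The zinc finger genes that rose were OSR1, HIC1, SNAI3, ZNF79, ZNF556 and ZNF385A. HIC1, a repressor known as a p53 target, stood at 22.3, 19.6 and 17.1 with DMSO and at 57.7, 49 and 62.3 with mitoxantrone. Its exons share 2419 bases with SMG6 on the opposite strand. ZNF385A, an RNA-binding partner of p53, was the most abundant, at 623 ± 125 (SD, n = 3) and 1335 ± 109 (SD, n = 3). OSR1 rose 3.27-fold from 14.7 ± 6.11 (SD, n = 3). SNAI3, of the Snail family of repressors, rose 2.26-fold, and its call was lost without DMSO replicate 3 or mitoxantrone replicate 2 (adjusted p 0.058 to 0.075). By symbol, 17 zinc finger genes were in the table, and among the 13 members of that set 5 rose and 7 fell. The list of 31 KLF, SP and EGR genes had KLF9, which fell, and the non-member KLF4, which rose.

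ETS factors moved in opposite directions. ETS2 was the member with the highest level per length with DMSO, at 65.3 ± 8.31 FPKM (SD, n = 3), and fell to 29.3 ± 0.539 FPKM (SD, n = 3). EHF, an epithelial ETS factor, was at 1899, 1023 and 1821 normalized reads with DMSO and 3478, 4130 and 4400 with mitoxantrone. Replicate 2 was the low DMSO library, but the groups stayed apart, and EHF rose 2.53-fold. SPDEF, which drives goblet cell differentiation in airways, was at 24.1, 43.3 and 30.8 with DMSO and 14.7, 7.29 and 5.37 with mitoxantrone. Its call was lost without mitoxantrone replicate 3 (adjusted p = 0.054). The ETS list of 28 had 5 genes in the table, 3 of them members; of the other 2, ETV5 rose and ELF3 fell.

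Of the 4 leucine zipper factors, JDP2 and CEBPA fell, BATF2 rose and NFE2 did not pass. JDP2, a repressor that pairs with JUN, was at 360.9, 453.4 and 440.4 with DMSO and 156, 137.5 and 161 with mitoxantrone, 2.76-fold lower. It overlaps a listed clone-named gene on the opposite strand, whose log2 fold change was -1.80 and which did not pass the test. CEBPA, a factor of epithelial and myeloid differentiation, fell from 81 ± 6.77 (SD, n = 3) to 32.9 ± 9.51 (SD, n = 3). BATF2, an interferon-inducible factor, was at 8.98 ± 2.96 and rose to 25.3 ± 4.68 (SD, n = 3 each). Its call was lost without DMSO replicate 1 or 3 or mitoxantrone replicate 1 or 2 (adjusted p 0.056 to 0.12). NFE2 had 3.44, 9.27 and 18 normalized reads with DMSO and 2.08 to 2.26 with mitoxantrone, with an adjusted p of 0.11. The list of 46 AP-1, ATF, MAF and C/EBP genes had 6 in the table, the other 2 being FOS, which rose, and CEBPD, which fell.

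Of the 6 homeobox and paired box factors 1 was called higher, 4 were called lower and 1 did not pass. Over all members 37.5% were called higher and 56.9% lower. IRX3, of the Iroquois family, was at 292.1, 424.5 and 306.7 with DMSO and at 139.1, 97.9 and 168.5 with mitoxantrone, a 2.52-fold fall. DMBX1 fell 3.53-fold from 86.6 ± 16.5 (SD, n = 3) and BARX2, a factor of epithelial and muscle development, 2.39-fold. ZFHX4 had 124.6, 57.7 and 108 with DMSO and 28.3, 53.1 and 48.3 with mitoxantrone. The groups nearly touched, and its call was lost without DMSO replicate 1 or 3 or mitoxantrone replicate 1 or 3 (adjusted p 0.056 to 0.18). PAX8, a factor of thyroid and kidney identity, rose from 80 ± 8.87 (SD, n = 3) to 177.2 ± 18.9 (SD, n = 3), with 685 exon bases shared with PAX8-AS1. For ZFHX2 the highest DMSO library and the lowest treated one both stood at 56.5, and the adjusted p was 0.056. The list of homeobox genes outside HOXA, which does not take in DMBX1, had 13 genes in the table, 5 of them members with 1 called higher and 3 lower. Of the 8 others 2 rose and 6 fell.

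The other DNA-binding factors were evenly divided. RELB, a subunit of the alternative NF-kB pathway, was at 162.4, 240.1 and 163.6 with DMSO and 402.6, 411.6 and 355.3 with mitoxantrone, a 2.07-fold rise. STAT4, which relays interleukin 12 in lymphocytes, was at 15.5, 15.5 and 17.1 with DMSO and at 53.1, 42.7 and 65.5 with mitoxantrone. NR5A2 (LRH-1), an orphan nuclear receptor, was at 6.87 ± 1.48 and rose to 30.5 ± 7.54 (SD, n = 3 each). EOMES, a T-box factor, was at 47 ± 8.73 and rose to 106.3 ± 3.8 (SD, n = 3 each). A list of 38 genes drawn up around the NF-kB, IRF and STAT families had 5 in the table. These were RELB and STAT4 and the non-members NFKBIZ, SP140 and TRIM22, of which SP140 and TRIM22 belong to none of those families. All 5 were called higher, as was 56.7% of the whole table.

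NFIB, a factor of lung maturation, was the most abundant of those that fell, from 489.8 ± 61.6 (SD, n = 3) to 198.5 ± 29.9 (SD, n = 3). EBF3 fell 3.31-fold from 36.1 ± 3.48 (SD, n = 3). MYB overlapped between the groups, and its adjusted p was 0.082. The table held 7 nuclear receptors, and of the 5 that are not members 3 rose and 1 fell. Of the 54 genes in the list of GATA, RUNX, T-box, TEAD, GRHL, AP-2 and NFI factors, EOMES, NFIB and the non-member GRHL3 were in the table, and GRHL3 rose.

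Among 11 cofactors 4 rose and 7 fell, where 37.5% of all members were called higher and 56.9% lower. TP53INP1, a nuclear protein induced by p53, was at 367.8, 267.9 and 422.4 normalized reads with DMSO and 858.2, 936.7 and 1012 with mitoxantrone, a 2.65-fold rise. The p53 list of 16 had 4 genes in the table, and all 4 were called higher, against 56.7% of the whole table. Of the 4 only TP53INP1 is a member, and BTG2, ZMAT3 and SESN2 are not. The part of p53 in these rises was not tested. MACC1, which raises MET receptor transcription, was at 718.3, 496.6 and 628 with DMSO and 1602, 1848 and 1854 with mitoxantrone. NUPR1, a small stress-induced protein grouped here as a cofactor and annotated to chromatin binding, rose 2.14-fold. Its levels of 14.9 ± 2.97 and 30.4 ± 1.7 FPKM (SD, n = 3 each) made it 1 of the 20 members above 10 FPKM in either group. ZCCHC12, a coactivator in BMP signalling, rose 2.52-fold from 20 ± 1.36 (SD, n = 3).

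TCF19, a PHD finger protein, fell from 1290, 1420 and 1167 normalized reads to 456.8, 422 and 428.3, a 2.96-fold change with a tight treated group. It shares 248 exon bases with POU5F1 on the opposite strand. CITED1, which binds the coactivators CBP and p300, was at 53.3, 62.9 and 40.3 with DMSO and 18.1, 5.21 and 12.9 with mitoxantrone. Its exons share 679 bases with AL133500.1 on the same strand, so the division of its reads is uncertain. PRAME, a cancer-testis antigen that represses retinoic acid receptors, EYA4, LMCD1, CAND2 and RIPPLY3 fell by 2.21-fold to 2.95-fold from levels under 60 normalized reads. The call for RIPPLY3 was lost without any 1 of the 6 libraries (adjusted p 0.073 to 0.3), and those for PRAME, EYA4, LMCD1 and CAND2 were each lost on leaving out any of 2 or 3 particular libraries singly (adjusted p 0.054 to 0.11). CAND2 shares 320 exon bases with RPL32, a ribosomal protein gene, on the opposite strand. The list of 72 corepressors and coactivators had 8 genes in the table, of which HIC1 and NUPR1 rose, CITED1 fell, and among 5 non-members 3 rose and 2 fell.

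The annotation also took in 4 members grouped here as signalling and other proteins. All 4 were called higher, against 56.7% of the whole table. MAP3K9, a kinase upstream of JNK, was at 764.7, 402.9 and 618.6 with DMSO and at 1231, 1719 and 1813 with mitoxantrone. MAPK11, which encodes p38β, and NEDD4L, a ubiquitin ligase of ion channels and SMAD proteins, rose 2.11-fold and 2.17-fold.

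**Figure D4:**
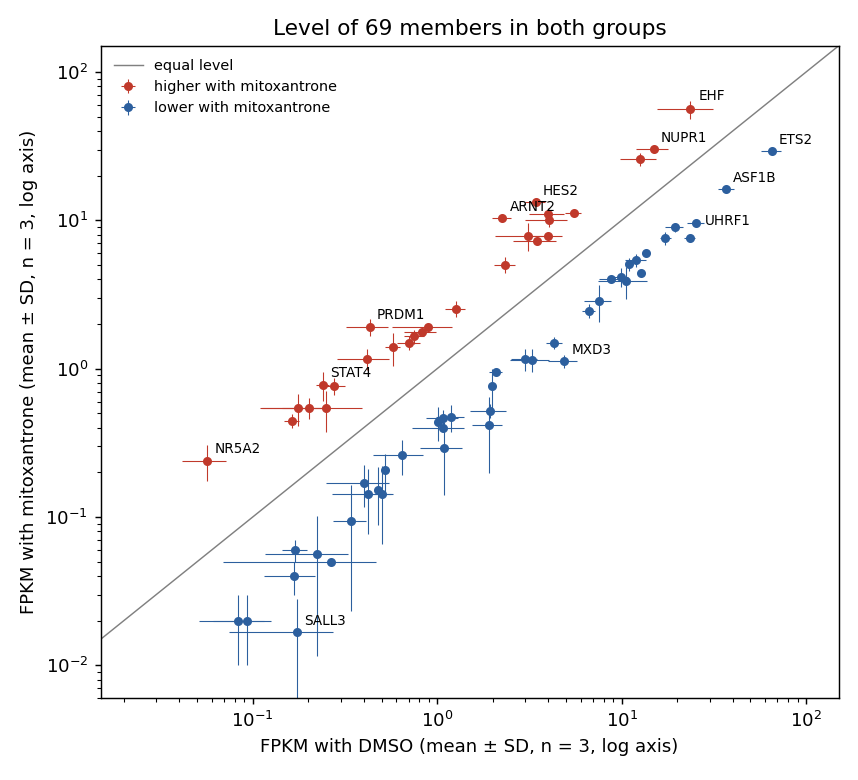
Mean FPKM of 69 members with DMSO (horizontal, log axis) and with mitoxantrone (vertical, log axis), with bars of 1 SD over 3 libraries and the line of equal level. Most members sit below 10 FPKM; ETS2, EHF, NUPR1 and ASF1B are among those at higher levels, and SALL3 is near the lower end of both axes.

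Per length, the members were mostly weakly expressed. In both groups 23 had a mean below 1 FPKM, and 20 exceeded 10 FPKM in at least 1 group. With mitoxantrone, EHF (56.1 ± 7.88 FPKM, SD, n = 3) stood above ETS2 (29.3 ± 0.539, SD, n = 3), while with DMSO ETS2 was above ASF1B (36.9 ± 3.55, SD, n = 3) and UHRF1 (25.3 ± 2.6, SD, n = 3). NUPR1 and ETS2 did not differ beyond their spread with mitoxantrone. Among the lowest with mitoxantrone were SALL3 at 0.0167 FPKM and PRDM16 and ZBTB8B at 0.02.

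Beyond the term that chose them, 32 members were annotated to negative regulation of transcription, and 7 of these were called higher and 24 lower. Of the 30 annotated to positive regulation 11 were called higher and 17 lower. The 18 with the negative annotation alone were 5 higher and 13 lower, and the 16 with the positive annotation alone were 9 higher and 6 lower with 1 uncalled. Over the whole table, negative regulators numbered 77, with 27 called higher and 47 lower, and positive regulators 99, with 44 higher and 50 lower. PRDM1, HES2, HIC1 and PRDM8 were repressors by annotation that rose. Chromatin binding was held by 16 members, with 3 called higher (PRDM8, EOMES and NUPR1) and 12 lower, as against 4 and 22 of 27 in the table. All 4 members at heterochromatin (SUV39H1, SALL1, UHRF1 and CBX2) were called lower, against 35.3% of the whole table. They are the only genes of the table with that annotation. Members are part of each table count, and the shares were not tested against each other.

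For 70 of the 72 members (97.2%) the DMSO and mitoxantrone libraries did not overlap, against 98.6% of the table. These were 27 higher and 43 lower members, where the table's shares were 60.1% and 38.5%. For the 37 members with at least 100 normalized reads, the median coefficient of variation was 11.4% with DMSO and 8.15% with mitoxantrone. DMSO replicate 2 was the lowest of its group for 13 of the 28 higher members, and for 38.6% of all higher genes in the table. Fitted changes were larger than those in the authors' deposited table for all 72 members. The gap exceeded 0.5 log2 units for 10 members with a median of 10.4 normalized reads, and was at most 0.17 among those with at least 100. For SALL3 the authors' deposited table gave a log2 fold change of -1.52 against the fitted -3.15.

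Genes of 3 further families in the table lacked the entry the rule asks for and are not members. They were SOX9, SOX12 and LEF1 in the SOX, TCF and LEF list (1 higher, 2 lower), FOXA2, FOXM1 and FOXD2 among forkhead genes (1 higher, 2 lower) and ELL3 among polymerase and general factors (higher). In the SMAD and TGF-β response list SNAI3 rose, and the non-member SNAI1 did not pass. The rule therefore follows the deposited annotation and does not take in every transcription factor of the table.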

How the data were processed

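RNA from 6 libraries of NCI-H292 cells was sequenced. Per the submitters' processing notes, the tools were HISAT2 2.0.1 and cutadapt 1.9.1, HTSeq 0.6.1, DESeq2, and Cufflinks 2.2.1. No genome build or strand setting was given in the sources used here, and the labels' protocols name both poly(A) selection and ribosomal RNA removal without saying which was used. The authors deposited, for the genes they listed, raw read counts per library and FPKM values per library. Per the file headers, the deposited table also holds a mean normalized count (a signal averaged over libraries), a log2 fold change with its standard error, a test score, a p-value and an adjusted p-value. No per-library column (0) was left unused.

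The authors' size factors were solved from the deposited counts and used for normalized reads and as offsets. The main test was edgeR 4.0.16 (quasi-likelihood, R 4.3.3, treatment only), fitted on all 1305 listed genes, with Benjamini-Hochberg adjustment over 18313 tests, the number implied by the authors' p-values, and a threshold of 0.05. Genes outside the table had no p-value to be placed in this order, although the authors' p-values imply places as far down as 4967. Adjusted p-values of the weaker members can therefore be too large, and calls missed narrowly can reflect this. For the 4 members not called, the authors' deposited adjusted p-values were 0.032 (NFE2), 0.012 (MYB), 0.024 (ZNF467) and 0.0021 (ZFHX2). Standard errors are the absolute log2 fold change divided by the square root of F. The fit was also run on counts simulated with the spread of these same genes, adjusted over the listed genes only. That run differs from the main test in its adjustment and is not used as support here. Assigned reads per library were solved from the deposited counts, gene lengths and FPKM values. Counts of reads limit precision, and 14762586 to 17817842 assigned reads per library leave members under 30 normalized reads poorly measured. Alternatives were TMM and DESeq2 1.42.0 size factors over the listed genes, DESeq2's Wald test, a minimum of 10 normalized reads, adjustment over listed genes only, limma 3.58.1 on log2(FPKM + 1) and log2(FPKM + 0.1), each library left out, and a replicate block.

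The members, the gene lists and the grouping by role were chosen with earlier results of these data known. The rule for named genes took the members among 93 genes of interest, the 12 largest rises and 12 largest falls with at least the table's median level, and the 2 largest in each direction per list, which gave 40 members; most others are named to account for the members. The counts cover all 72, and 3 members are not reported here singly or in the plots. Coordinates in the table were not used, since only 3 of 1267 matched identifiers equal those of GENCODE 29.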

Additional observations from a re-analysis of the deposited data

How the results depend on the processing

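The count of members called higher depended most on scaling. It was 27 with the authors' size factors, 9 with TMM and 3 with DESeq2 size factors over the listed genes, while 44 were called lower with either. The median log2 fold change moved from -1.12 to -1.80 and -2.11. Both alternatives scale on genes selected for change. On log2(FPKM + 1) the median log2 fold change of members was -0.257 and on log2(FPKM + 0.1) -1.04, as a pseudocount shrinks low genes. DESeq2's Wald test called 28 higher and 36 lower, a minimum of 10 normalized reads 27 and 39, adjustment over the listed genes 28 and 44, and limma 25 and 31 or 27 and 36. Leaving out each library gave 25 to 27 higher, 32 to 41 lower and medians of -1.13 to -1.08. In these fits 15 members lost their call at least once, all with a mean of 70.0 normalized reads or fewer, and 53 kept it. EHF had an adjusted p of 0.078 with TMM. No member changed direction under any alternative run.

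With the replicate number as a block, 28 members were called higher and 41 lower, with a median of -1.12. The log2 fold change of ZFHX2 (adjusted p = 0.00046) and the log2 fold change of MYB (adjusted p = 0.037) gained a call, and the log2 fold change of RIPPLY3 (adjusted p = 0.081) lost it. Same-numbered libraries did not deviate together (correlations -0.226, -0.153 and 0.032), so the numbers were not taken to pair the samples.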
